A study of Mus musculus with 9 samples.

Results

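The 6 genes described here are Saa1, Saa3, Hp, Lcn2, Lrg1 and Steap4, all linked to the acute phase response, among 18042 gene symbols measured in sorted tumour-associated macrophages. They were chosen by symbol with earlier results of these libraries known, namely their levels in all 3 groups. Their own levels and fold changes are therefore a description, and no test is given for them in any comparison. All 6 passed the filter on low counts that left 13090 genes for testing.

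RNA came from 9 libraries, 3 per group, of CD11b+ F4/80+ macrophages that were sorted out of MC38 tumours, which grow from a mouse colon carcinoma line. Female wild-type C57BL/6 mice aged 6 to 8 weeks received 1000000 MC38 cells under the skin of the back and were treated from day 9. The IN@OMVs group received IN@OMVs into the tumour at 12.5 µg of vesicle protein per mouse, given also as 625 µg per kg. The OMVs group received OMVs at the same protein dose by the same route. Control mice received an equal volume of solvent, named PBS in the sample descriptions. OMVs commonly stands for outer membrane vesicles, which Gram-negative bacteria shed and which carry lipopolysaccharide (LPS). The sample titles call the libraries of a group biological replicates. The labels spell out neither OMVs nor IN, nor the harvest time, the number of injections or how many mice stand behind a library. P-values measure the spread between these libraries.

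Libraries held 16813230 to 17288322 expected counts, and levels are given as CPM, counts scaled to a library of 1000000. Macrophage markers were at similar summed levels in all groups: 14485 to 20313 CPM over 12 genes in IN@OMVs, 14946 to 19674 CPM in OMVs and 15431 to 16501 CPM in Control. Lyz2 alone gave 5227 to 7951 CPM of these sums. Of the 12 genes, only Cd14 was called at an edgeR adjusted p under 0.05. It fell in IN@OMVs against Control and against OMVs, where 3.24% and 1.75% of tested genes fell. The sort markers were present in every library. Itgam, which encodes CD11b, was at 1480, 1080 and 1165 CPM in IN@OMVs 1, 2 and 3, below every other library. It lay at 1501 to 1896 CPM in OMVs and at 1726 to 1798 CPM in Control. Adgre1, which encodes F4/80, lay between 384 and 617 CPM. Library IN@OMVs 1 stood apart, with fibroblast markers at a summed 1663 CPM against 3787 to 6315 CPM in the other 8 libraries. T cell markers were high in replicate 1 of each group, at a summed 293 CPM in IN@OMVs 1, 246 CPM in OMVs 1 and 278 CPM in Control 1, against 90.5 to 165 CPM in the other 6 libraries.

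Acute phase proteins are secreted when infection or injury raises IL-1, IL-6 and TNF, which act through NF-kB, C/EBP factors and STAT3. The liver is their main source in the blood, but macrophages, neutrophils and fibroblasts make several of them locally. Serum amyloid A proteins, encoded by the Saa genes, are lipid-binding proteins that attract leukocytes. Saa1 is mainly a liver gene in mice, and Saa3 is the form made outside the liver. Haptoglobin (Hp) binds free haemoglobin, and lipocalin 2 (Lcn2) binds bacterial siderophores and so withholds iron. Both are also stored in neutrophil granules. Lrg1 encodes a secreted leucine-rich glycoprotein that modifies TGF-beta signalling in vessels and is made in the liver and in neutrophils. Steap4 encodes a membrane metalloreductase for iron and copper that inflammatory cytokines induce, and is not itself a secreted acute phase protein.

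The bases upstream of the transcript starts are shown because C/EBP factors are known regulators of acute phase genes. RefSeq windows of 250 bases (build GRCm38.p6) were matched for 5 of the 6 genes, all but Hp. In 4 of the 5 a C/EBP octamer, TTNNGCAA on either strand, was found, and it is written in capitals. These windows are chr7:46715677-46715926 on the minus strand for Saa3, chr7:46742981-46743230 on the minus strand for Saa1, chr2:32387740-32387989 on the minus strand for Lcn2 and chr5:7960222-7960471 on the plus strand for Steap4. Each is printed 5′ to 3′ on the gene's own strand and ends at the base before the start.
Saa3: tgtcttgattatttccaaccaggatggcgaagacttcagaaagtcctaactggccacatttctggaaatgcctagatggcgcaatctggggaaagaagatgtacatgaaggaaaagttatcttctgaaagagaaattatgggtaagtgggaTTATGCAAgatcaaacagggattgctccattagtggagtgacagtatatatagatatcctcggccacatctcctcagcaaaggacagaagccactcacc
Saa1: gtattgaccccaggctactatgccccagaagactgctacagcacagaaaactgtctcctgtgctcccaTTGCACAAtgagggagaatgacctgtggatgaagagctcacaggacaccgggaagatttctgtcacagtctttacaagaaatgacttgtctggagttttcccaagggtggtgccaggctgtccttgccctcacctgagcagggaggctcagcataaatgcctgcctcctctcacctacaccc
Lcn2: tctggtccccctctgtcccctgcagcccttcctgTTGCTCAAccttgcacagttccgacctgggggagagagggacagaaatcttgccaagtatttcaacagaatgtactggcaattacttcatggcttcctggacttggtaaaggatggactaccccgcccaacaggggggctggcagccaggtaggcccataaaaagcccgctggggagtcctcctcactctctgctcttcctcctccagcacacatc
Steap4: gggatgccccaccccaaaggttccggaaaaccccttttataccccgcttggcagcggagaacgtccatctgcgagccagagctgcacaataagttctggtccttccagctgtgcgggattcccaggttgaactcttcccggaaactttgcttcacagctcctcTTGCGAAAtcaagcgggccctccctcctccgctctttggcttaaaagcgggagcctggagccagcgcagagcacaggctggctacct

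The octamer was TTATGCAA in Saa3, 99 to 92 bases before the start. In Saa1 it read TTGCACAA, in Lcn2 TTGCTCAA and in Steap4 TTGCGAAA on the printed strand, each a match to the reverse complement. Of all 32851 RefSeq windows of this length, 9.56% held the octamer. The window of Lrg1 held none.

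A loose NF-kB pattern, GGG and CC with any 5 bases between them on either strand, was in the windows of Saa1, Lcn2, Lrg1 and Steap4 and in 45.8% of all windows. The STAT pattern TTCNNNGAA was in that of Steap4 alone among the 5 and in 7.02% of all windows. The AP-1 pattern TGANTCA was in none of the 5 and in 6.75% of all windows. These 4 patterns were chosen with the windows in view, overlapping matches were counted, and a match is a match of letters only. Their part in the levels of the genes was not tested.

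**Figure D1:**
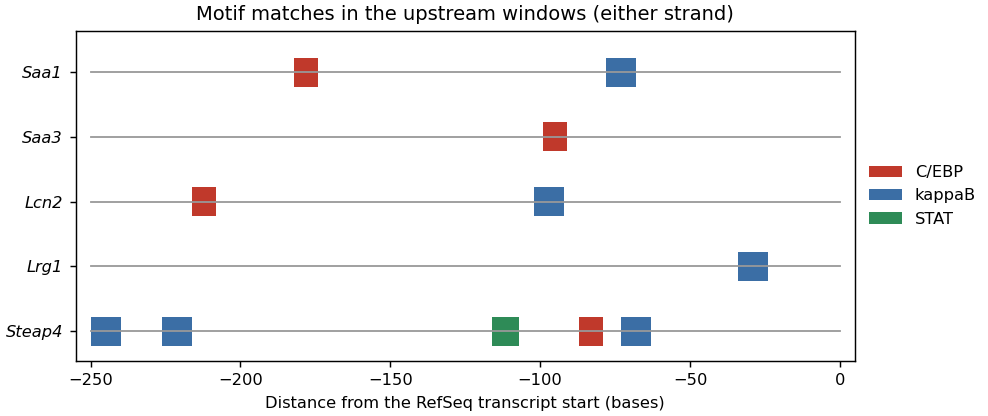
Pattern matches in the 250 bases upstream of the RefSeq start, by distance from the start in bases, for the 5 genes with a window. Coloured blocks are matches on either strand; the C/EBP octamer (red) is present in Saa1, Saa3, Lcn2 and Steap4.

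The Saa genes held the most extreme values. Saa3 stood at 4.37, 6.84 and 7.28 CPM in IN@OMVs 1, 2 and 3, at 359.9, 410.4 and 534.2 CPM in OMVs 1, 2 and 3, and at 441.9, 572.1 and 598.3 CPM in Control 1, 2 and 3. Every IN@OMVs library thus lay far below every other library, while the OMVs and Control libraries overlapped. Its mean in IN@OMVs was 1.15% of that in Control and 1.42% of that in OMVs, or 87.2-fold and 70.5-fold lower. The log2 change was -6.44 ± 0.25 for IN@OMVs against Control (SE of the fit, n = 3 each). It was -6.13 ± 0.24 for IN@OMVs against OMVs and -0.31 ± 0.18 for OMVs against Control.

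Saa1, at a far lower level, was not counted at all in IN@OMVs. It had 0 counts in each of the 3 IN@OMVs libraries, 28, 28 and 34 counts in OMVs 1, 2 and 3, and 21, 37 and 29 counts in Control 1, 2 and 3. All 6 of the other libraries held it, at 1.25 to 2.16 CPM. Against the limit that a count of 0 allows, 3 counts over the whole IN@OMVs group, Saa1 was at least 28.8-fold lower than in Control and at least 29.8-fold lower than in OMVs. This limit covers counting error only. Between OMVs and Control the fitted log2 change was 0.05 ± 0.28, and the libraries overlapped.

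Its neighbour Saa2 was likewise lowest in IN@OMVs, at the edge of detection. Saa2 had 0 counts in each IN@OMVs library, 5, 8 and 3 counts in OMVs and 4, 3 and 2 counts in Control, too few for the tested set. Saa4, a constitutive apolipoprotein gene of the liver, had 0 counts over the IN@OMVs group, 1 over OMVs and 1 over Control, and no fold is given. In the GENCODE M21 transcripts Saa1 and Saa2 were identical at 94.4% of 606 aligned bases, and Saa1 and Saa3 at 76.0% of 492. Counts of the 4 Saa genes were whole numbers in all 9 libraries. RefSeq lists Saa1 and Saa2 each as an older name of the other, so which of the pair a deposited symbol means depends on the annotation, which no label names.

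Hp, the haemoglobin binder, stood at 15.2, 14.4 and 18.1 CPM in IN@OMVs 1, 2 and 3, at 181.4, 166.2 and 199.3 CPM in OMVs and at 307.0, 293.3 and 276.6 CPM in Control. The 3 groups did not overlap at all, and OMVs lay between the other two. The mean in IN@OMVs was 5.44% of that in Control, and the mean in OMVs was 62.4% of it. Log2 changes were -4.20 ± 0.11 for IN@OMVs against Control, -3.52 ± 0.11 for IN@OMVs against OMVs and -0.68 ± 0.09 for OMVs against Control.

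Lcn2, the siderophore binder, had 8.99, 6.56 and 6.64 CPM in IN@OMVs 1, 2 and 3, 100.8, 75.0 and 102.9 CPM in OMVs, and 136.7, 116.1 and 112.4 CPM in Control. Again no library of one group reached into the next, although OMVs 3 and Control 3 were close. IN@OMVs held 6.07% and OMVs 76.3% of the Control mean. This gave log2 changes of -4.04 ± 0.17 for IN@OMVs against Control, -3.65 ± 0.17 for IN@OMVs against OMVs and -0.39 ± 0.14 for OMVs against Control.

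For Lrg1 the values were 1.97, 0.741 and 1.40 CPM in IN@OMVs 1, 2 and 3, 18.1, 11.9 and 15.3 CPM in OMVs, and 35.1, 25.0 and 22.9 CPM in Control. It had the lowest OMVs share of the 6 genes, 54.5% of the Control mean, and 4.95% in IN@OMVs. Its spread was also wide: Control 1 lay well above Control 2 and 3, and IN@OMVs 2 rested on 13 counts. Fitted log2 changes were -4.34 ± 0.32 for IN@OMVs against Control, -3.47 ± 0.32 for IN@OMVs against OMVs and -0.87 ± 0.25 for OMVs against Control.

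Steap4, the metalloreductase gene, was at 2.22, 2.22 and 3.32 CPM in IN@OMVs 1, 2 and 3, at 18.3, 16.3 and 20.4 CPM in OMVs and at 28.1, 27.2 and 23.5 CPM in Control. The groups kept the order of Hp and did not overlap. IN@OMVs held 9.84% of the Control mean, the largest share left among the 6 genes, and OMVs held 69.7%. Its log2 change was -3.34 ± 0.17 for IN@OMVs against Control, -2.82 ± 0.17 for IN@OMVs against OMVs and -0.52 ± 0.15 for OMVs against Control.

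**Figure D2:**
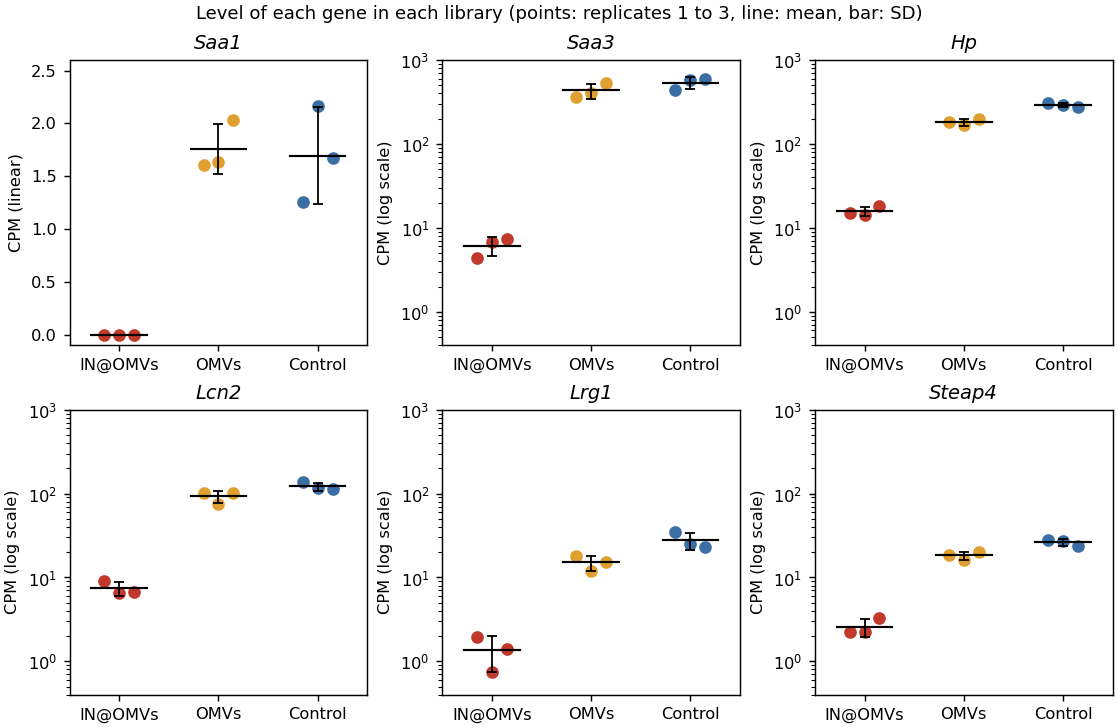
CPM of each gene by library, on a linear axis for Saa1 and a log axis for the others, with points for replicates 1 to 3, lines for group means and bars for SD (n = 3). The 3 IN@OMVs libraries are the lowest in every panel; OMVs and Control overlap for Saa1 and Saa3 and are separate for the other 4 genes.

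All 6 genes were lower in every IN@OMVs library than in any Control library; 12.5% of the tested genes had groups separated in that direction. The same held for all 6 in IN@OMVs against OMVs, where the share over tested genes was 8.72%. In OMVs against Control 4 of the 6, Hp, Lcn2, Lrg1 and Steap4, were lower without overlap, beside 9.89% of tested genes. Ranked by fitted change for IN@OMVs against Control, from the most negative of 13090 genes, Saa3 was number 3, Lrg1 9, Hp 11, Lcn2 12 and Steap4 20. Saa1 is not ranked there, since its fitted change depends on the prior count and only its limit of -4.85 can be read. These ranks follow from how the genes were chosen. In OMVs against Control their ranks were 110 for Lrg1, 208 for Hp, 338 for Steap4, 547 for Lcn2, 778 for Saa3 and 8629 for Saa1. The 3 comparisons share libraries pairwise, so their values are not independent.

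**Figure D3:**
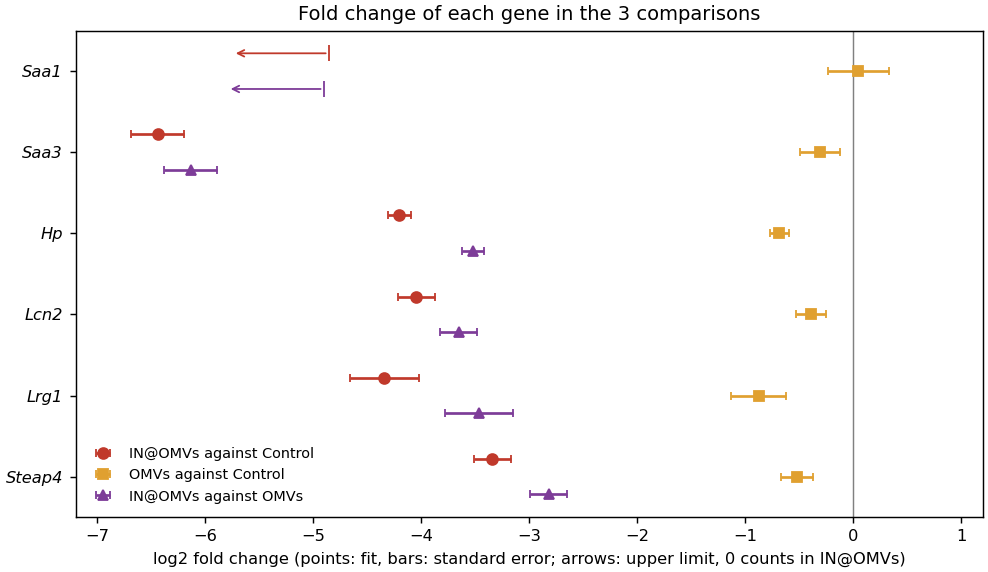
Log2 fold change of each gene in the 3 comparisons, with the standard error of the fit; arrows mark the limits of Saa1, which had 0 counts in IN@OMVs. Both comparisons of IN@OMVs lie at or below -2.82, while OMVs against Control lies between -0.87 and 0.05.

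Divided by the length of the first GENCODE M21 transcript of each gene, levels can be set beside each other as CPM per kilobase. In Control the order was Saa3 (968 ± 151, SD, n = 3), Hp (217 ± 11.3), Lcn2 (133 ± 14.3), Lrg1 (19.7 ± 4.62), Steap4 (8.33 ± 0.77) and Saa1 (2.78 ± 0.75). No neighbours in that order overlapped between libraries. In IN@OMVs Saa3 lost its lead: Hp was at 11.8 ± 1.46, Saa3 at 11.1 ± 2.82 and Lcn2 at 8.08 ± 1.51 CPM per kilobase. Libraries of Hp and Saa3 overlapped, as did those of Saa3 and Lcn2. Lrg1 (0.973 ± 0.437) and Steap4 (0.820 ± 0.201) also overlapped, and Saa1 was at 0.

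Leaving out IN@OMVs 1, the library low in fibroblast markers, gave log2 changes against Control of -6.25 for Saa3, -4.18 for Hp, -4.21 for Lcn2, -4.69 for Lrg1 and -3.25 for Steap4. Without it the log2 limit of Saa1 was -4.30, compared with -4.85 from all 3 libraries, since fewer libraries stand behind the 0. Against OMVs the same omission gave -5.94 for Saa3, -3.49 for Hp, -3.82 for Lcn2, -3.82 for Lrg1 and -2.72 for Steap4, and a limit of -4.34 for Saa1.

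Several of these genes are also made by neutrophils, and transcripts of neutrophils were lower in the same libraries. Mouse neutrophils carry CD11b but little or no F4/80. How far the sort on both markers left them out was not tested. The summed level of 16 neutrophil markers was 132.5 to 201.1 CPM in IN@OMVs, 578.9 to 767.2 CPM in OMVs and 808.6 to 1195 CPM in Control. Group means in IN@OMVs and OMVs were 17.01% and 74.04% of the Control mean. Csf3r, the receptor gene of the growth factor Csf3, made up 90.8 of the mean 159.7 CPM in IN@OMVs. Without it, an alternative chosen after seeing the data, the sum was 57.6 to 87.9 CPM in IN@OMVs, 434 to 601 CPM in OMVs and 663 to 1008 CPM in Control, which put IN@OMVs at 8.84% and OMVs at 69.4% of the Control mean. Of the 14 markers tested, 13 fell in IN@OMVs against Control by edgeR's quasi-likelihood test at an adjusted p under 0.05, where 3.24% of all tested genes fell. The same number fell against OMVs, where 1.75% of tested genes fell. None was called in OMVs against Control, with 1 called under the replicate block.

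S100a9, Csf3r and S100a8 were the most abundant neutrophil markers. Csf3r averaged 90.8 ± 19.9 CPM in IN@OMVs, 154 ± 11.2 CPM in OMVs and 160 ± 23.4 CPM in Control and had the smallest log2 change of the 13 that fell in IN@OMVs against Control (-0.81 ± 0.15, edgeR adjusted p = 0.0158). Its call ended without IN@OMVs 3 or Control 1 (up to edgeR adjusted p = 0.0692). S100a9 and S100a8 encode the calprotectin subunits. S100a9 was at 23.9 ± 8.94 CPM in IN@OMVs, 234 ± 43.2 CPM in OMVs and 334 ± 98.1 CPM in Control. S100a8 averaged 16.1 ± 3.53 CPM in IN@OMVs, 144 ± 22.1 CPM in OMVs and 216 ± 39.5 CPM in Control (SD, n = 3 each). Its log2 change for IN@OMVs against Control was -3.75 ± 0.20 (edgeR adjusted p = 2.97e-05). Ly6g, which marks mature neutrophils, was at 0.118 ± 0.00473 CPM in IN@OMVs, 1.74 ± 0.389 CPM in OMVs and 4.07 ± 1.03 CPM in Control. Each IN@OMVs library held 2 counts of Ly6g, so its SD there reflects only library size. Elane and Mpo, granule genes of neutrophil precursors, were at or near 0 in every library. The part that neutrophil transcripts had in the values of the 6 genes was not tested. In bulk libraries fewer cells of a type and less RNA per cell cannot be told apart.

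Other cell types gave smaller differences. Monocyte markers summed to 4538 to 5162 CPM in IN@OMVs, 5565 to 6103 CPM in OMVs and 6931 to 7428 CPM in Control, and 8 of 12 fell in IN@OMVs against Control, beside 3.24% of tested genes. Fibroblast markers ranged from 1663 to 5208 CPM in IN@OMVs, 3787 to 4982 CPM in OMVs and 4657 to 6315 CPM in Control, with 0 of 13 called in edgeR in any comparison. Dendritic cell markers were higher in IN@OMVs, at 299 to 347 CPM, against 258 to 272 CPM in OMVs and 239 to 275 CPM in Control. Irf8 alone gave 195 to 272 CPM of the IN@OMVs sums. Of 10 tested, 3 rose and 0 fell in IN@OMVs against Control (2 and 0 with the replicate block), beside 3.32% and 3.24% of tested genes. The part of these cell types in the values of the 6 genes was not tested either. Hepatocyte markers, whose cells are the classical source of acute phase proteins, summed to at most 0.285 CPM in any library, with Apoa1, Fgb and Serpina1a at 0 in all 9. The epithelial keratins Krt8 and Krt18 reached at most 0.185 CPM.

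**Figure D4:**
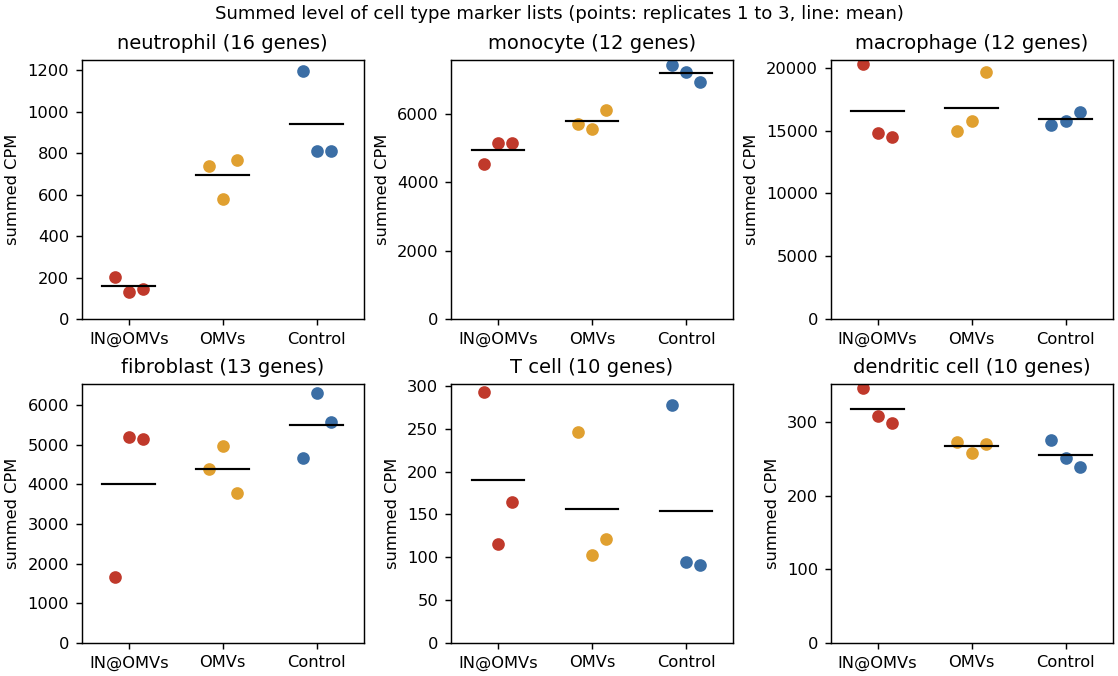
Summed CPM of 6 cell type marker lists by library, with points for replicates 1 to 3 and lines for group means. Neutrophil markers sit between 132.5 and 201.1 CPM in the 3 IN@OMVs libraries, below all others, while macrophage markers are at similar summed levels in the 3 groups.

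Among all other genes, those with the most similar course over the 9 libraries were mostly neutrophil genes. Likeness was measured as the root mean square difference of centred log2(CPM + 0.5) over the 9 libraries, among 10517 genes with a mean of at least 5 CPM. S100a8 was nearest to Lcn2 (0.188), Lrg1 (0.201) and Hp (0.276), followed by S100a9 for Lcn2 (0.201) and Lrg1 (0.209) and by Retnlg for Hp (0.316). Retnlg encodes a resistin-like protein of granulocytes. Next came Retnlg and the skin and neutrophil protease gene Asprv1 for Lcn2 and Lrg1, and S100a9 and Asprv1 for Hp. For Steap4 they were Asprv1 (0.304), the neutrophil surface gene Cd177 (0.329), Chil1 (0.355) and S100a8 (0.357).

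Saa3 had no close match. The nearest were Ngp, which encodes a neutrophil granule protein (0.840), and Retnlg (1.08), S100a9 (1.35) and S100a8 (1.37). Ngp averaged 0.161 ± 0.189 CPM in IN@OMVs, 17.7 ± 5.66 CPM in OMVs and 21.0 ± 7.61 CPM in Control. For Saa1, whose 0 counts make the measure depend on the added 0.5, they were Fpr1 (0.182), the NAD-consuming enzyme gene Cd38 (0.213), Mmp8 (0.317) and Il1b (0.322). Among the 6 genes themselves, Hp and Lcn2 were most alike (0.212), then Lcn2 and Lrg1 (0.287). These distances describe shared libraries and carry no test.

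Receptors, ligands and related genes of these proteins were followed in a list of 21 genes, of which 20 were tested. In IN@OMVs against Control 3 rose and 6 fell, where 3.32% of tested genes rose and 3.24% fell. The median log2 change was 0.04 beside 0.00 over all tested genes. The formyl peptide receptors, which bind serum amyloid A, fell: Fpr1 averaged 8.30 ± 0.828 CPM in IN@OMVs and 42.2 ± 4.82 CPM in Control (log2 -2.35 ± 0.15, edgeR adjusted p = 7.15e-05). Fpr2 was at 52.5, 39.6 and 43.8 CPM in IN@OMVs and 94.7, 80.3 and 83.2 CPM in Control (-0.93 ± 0.12, edgeR adjusted p = 0.0022). Against OMVs both fell as well, by 2.26 and 1.18 log2 units (edgeR adjusted p = 0.000206 and 0.0015). Olr1, an oxidised lipoprotein receptor, also fell against Control (-0.98 ± 0.15), and Mmp9, whose protein Lcn2 binds, fell by 1.36 log2 units.

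Cd163, the receptor of haptoglobin-haemoglobin complexes, was at 2.71, 2.57 and 2.79 CPM in IN@OMVs, 2.41, 2.22 and 5.14 CPM in OMVs, and 10.4, 16.1 and 17.9 CPM in Control. It fell in both treated groups, by 2.46 ± 0.33 log2 units in IN@OMVs (edgeR adjusted p = 0.00278) and by 2.18 ± 0.33 in OMVs (edgeR adjusted p = 0.0363). The call in OMVs held in only 1 of the 9 omissions of a single library (edgeR adjusted p up to 0.208). The 2 treated groups overlapped (-0.27 ± 0.34, edgeR adjusted p = 0.802). Hmox1, haem oxygenase 1, rose in IN@OMVs to 855 ± 63.9 CPM, against 354 ± 75.9 CPM in OMVs and 401 ± 80.4 CPM in Control. Its log2 change was 1.09 ± 0.18 against Control (edgeR adjusted p = 0.00722) and 1.27 ± 0.18 against OMVs (edgeR adjusted p = 0.00604). Cd36, a scavenger receptor that also binds serum amyloid A, rose against both (1.23 ± 0.18 and 1.54 ± 0.19). In IN@OMVs against OMVs 2 of the 20 rose and 3 fell, where 1.1% of all tested genes rose and 1.75% fell. Slc22a17, a proposed receptor of lipocalin 2, lay between 0.407 and 0.985 CPM in the 9 libraries.

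Of 34 genes on a list of other acute phase proteins, Saa2 and Saa4 included, 30 were listed, 7 were at 0 in every library and 15 were tested. In IN@OMVs against Control 2 rose and 2 fell, where 3.32% and 3.24% of all tested genes did, and the median log2 change was -0.17. Those that fell were ceruloplasmin (Cp, -1.08 ± 0.10, edgeR adjusted p = 0.000554), a copper-carrying ferroxidase, and lactoferrin (Ltf, -3.13 ± 0.60, edgeR adjusted p = 0.0164), an iron-binding neutrophil granule protein. The serine protease inhibitor genes Serpina3g (1.38 ± 0.18) and Serpina3f (1.05 ± 0.17) rose. Their counts were fractional in 6 and 8 libraries, so reads were shared with other sequences.

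Complement C3, in contrast, was higher in OMVs. It averaged 912 ± 85.9 CPM in IN@OMVs, 1261 ± 143 CPM in OMVs and 767 ± 33.3 CPM in Control. C3 rose in OMVs against Control (0.72 ± 0.10, edgeR adjusted p = 0.0247, and 0.0748 with the replicate block) and fell in IN@OMVs against OMVs (-0.47 ± 0.10, edgeR adjusted p = 0.0386). Against OMVs 3 of 15 fell and 0 rose by edgeR, the others being Cp and Ltf, beside 1.75% of all tested genes that fell. Limma-voom gave Ltf an adjusted p of 0.0711. Serpina3n, chosen after its values were seen, was 1.29 CPM in IN@OMVs 1 and 8.61 to 40.6 CPM in the other 8 libraries and was not called in any comparison.

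On the list of the IL-6 family and STAT3 signalling, 6 of 21 tested genes fell and 0 rose in IN@OMVs against Control (median -0.29), where 3.24% of all tested genes fell. Il6 itself was at 0.616, 0.171 and 0.582 CPM in IN@OMVs, 3.68, 5.13 and 5.26 CPM in OMVs, and 5.13, 5.61 and 5.24 CPM in Control. It fell by 3.53 ± 0.34 log2 units against Control (edgeR adjusted p = 0.000564) and by 3.35 ± 0.34 against OMVs (edgeR adjusted p = 0.00152). Oncostatin M (Osm), a cytokine of the same family, fell by 0.94 ± 0.14 against OMVs, and Csf3, the growth factor of neutrophils, by 3.06 ± 0.25 against Control. Socs3, a feedback inhibitor induced by STAT3, fell by 0.93 ± 0.10 (edgeR adjusted p = 0.00103).

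Genes of the signalling chain beneath the cytokines were closer to Control. The receptor genes Il6ra (-0.27 ± 0.10) and Il6st (-0.05 ± 0.10) and the factor gene Stat3 (-0.11 ± 0.09) were not called in IN@OMVs against Control, with edgeR adjusted p = 0.184, 0.843 and 0.584. Il22 and its receptor gene Il22ra1 were at 0 in all 9 libraries. In IN@OMVs against OMVs 7 genes of the list fell and 0 rose, where 1.75% of all tested genes fell. Among the 7 was Bcl3 (-0.60 ± 0.11, edgeR adjusted p = 0.0225).

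Among 22 tested genes of IL-1, TNF and IL-17 signalling, 7 fell and 0 rose in IN@OMVs against Control, and 5 fell against OMVs. The shares over all tested genes that fell were 3.24% and 1.75%. Il1b averaged 132 ± 22.5 CPM in IN@OMVs, 495 ± 58.8 CPM in OMVs and 477 ± 100 CPM in Control. It fell by 1.86 ± 0.17 log2 units against Control and by 1.91 ± 0.17 against OMVs (edgeR adjusted p = 0.000488 and 0.000838). Il1a fell by 1.46 ± 0.15, and Il1r2, the decoy receptor of IL-1, by 1.82 ± 0.21 against Control. Tnf was not called in any comparison: it was at 34.4 ± 8.45 CPM in IN@OMVs, 30.4 ± 3.45 CPM in OMVs and 26.8 ± 2.58 CPM in Control.

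Of 21 C/EBP and NF-kB genes, 2 rose and 4 fell in IN@OMVs against Control (1 and 3 with the replicate block), beside 3.32% and 3.24% of all tested genes. Cebpb (-0.24 ± 0.11, edgeR adjusted p = 0.287) and Cebpd (0.10 ± 0.08, edgeR adjusted p = 0.557), the C/EBP factors most linked to acute phase genes, were not called. The NF-kB feedback genes Nfkbia (-0.41 ± 0.08), Tnfaip3 (-0.73 ± 0.15) and Nfkbiz (-0.57 ± 0.12, edgeR adjusted p = 0.0297) fell. Nfkbiz kept its call in 2 of 9 omissions of a single library, Nfkbia in 6 and Tnfaip3 in 5. Cebpa (0.57 ± 0.13, edgeR adjusted p = 0.0394, and 0.0795 with the replicate block) and Cebpg (0.29 ± 0.06) rose. In IN@OMVs against OMVs 0 of the 21 rose and 6 fell (0 and 5 with the replicate block). Over all tested genes 1.1% rose and 1.75% fell there.

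Genes induced together with acute phase genes by IL-1 and IL-17 were mostly lower in IN@OMVs. Of 20 tested, 12 fell and 2 rose against Control with a median of -0.97, and 11 fell and 0 rose against OMVs with a median of -1.35. Over all tested genes 3.24% fell against Control and 1.75% against OMVs. S100a8 and S100a9, already counted among the neutrophil markers, were among the genes that fell in both comparisons. Slpi, a secreted protease inhibitor, was at 19.3, 18.5 and 17.9 CPM in IN@OMVs, 53.3, 53.3 and 60.5 CPM in OMVs and 76.1, 63.6 and 65.9 CPM in Control. Its log2 change against Control was -1.88 ± 0.09 (edgeR adjusted p = 1.45e-05). The neutrophil-attracting chemokine gene Cxcl2 (-1.31 ± 0.12) fell against Control, as did the prostaglandin synthase gene Ptgs2 (-0.94 ± 0.11). The 2 that rose were Mmp13 (1.90 ± 0.20) and Ccl7 (0.65 ± 0.16, edgeR adjusted p = 0.049, and 0.0825 with the replicate block).

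Cxcl1, another neutrophil attractant, parted the treated groups. It averaged 9.02 ± 1.41 CPM in IN@OMVs, 63.8 ± 21.1 CPM in OMVs and 26.0 ± 1.58 CPM in Control. Cxcl1 fell in IN@OMVs against Control (-1.53 ± 0.22, edgeR adjusted p = 0.00445) and rose in OMVs against Control (1.29 ± 0.21, edgeR adjusted p = 0.04). In OMVs against Control 4 of the 137 tested genes on the 8 lists were called, Cxcl1, C3 and Nod1 upward and Cd163 downward, while 0.42% of all tested genes were called, 0.298% upward and 0.122% downward. Those 4 became 2 with the replicate block. None of the 4 kept its call in all 9 omissions: the count was 0 without IN@OMVs 3, OMVs 2, OMVs 3, Control 1, Control 2 or Control 3, was 2 without IN@OMVs 2 or OMVs 1, and was 12 without IN@OMVs 1. In edgeR 22 to 39 of the genes had an unadjusted p under 0.05 where the count was 0.

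Iron genes on the list that overlaps Lcn2 and Steap4 in function went both ways. In IN@OMVs against Control 2 of 18 tested rose and 4 fell, and the same counts were found against OMVs. Over all tested genes 3.32% rose and 3.24% fell against Control, and 1.1% rose and 1.75% fell against OMVs. The iron exporter gene Slc40a1 rose (0.93 ± 0.18, edgeR adjusted p = 0.0149, and 1.34 ± 0.18 against OMVs), as did Hmox1. Falling were the transferrin receptor gene Tfrc (-0.57 ± 0.08, edgeR adjusted p = 0.0031), the metal importer gene Slc39a14 (-0.85 ± 0.10), Cp and Ltf. Steap3, the family member that reduces iron in endosomes, was at 37.3 ± 2.36 CPM in IN@OMVs, 36.6 ± 0.717 CPM in OMVs and 34.7 ± 1.25 CPM in Control and was not called.

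Genes on a list for the sensing of LPS, a component of such vesicles, were mostly not called. The list also holds other sensors, such as Nod1, Nod2, Tlr2 and Tlr9. Of 16 tested, 1 rose and 1 fell in IN@OMVs against Control, near the 3.32% and 3.24% over all tested genes. Against OMVs 0 rose and 2 fell, Cd14 and Acod1, where 1.1% and 1.75% of all tested genes did. Acod1 lost that call in 5 of the 9 omissions (edgeR adjusted p up to 0.103). Tlr4, the LPS receptor, had 186 ± 19.2 CPM in IN@OMVs, 164 ± 17.5 CPM in OMVs and 157 ± 5.67 CPM in Control (0.25 ± 0.09 for IN@OMVs against Control, edgeR adjusted p = 0.181). Its co-receptor Cd14 fell against Control (-1.07 ± 0.12, edgeR adjusted p = 0.00121) and against OMVs (-0.93 ± 0.12, edgeR adjusted p = 0.00497). Nod1, an intracellular peptidoglycan sensor, rose in IN@OMVs against Control (0.55 ± 0.06) and in OMVs against Control (0.44 ± 0.06, edgeR adjusted p = 0.0363, and 0.0854 with the replicate block).

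**Figure D5:**
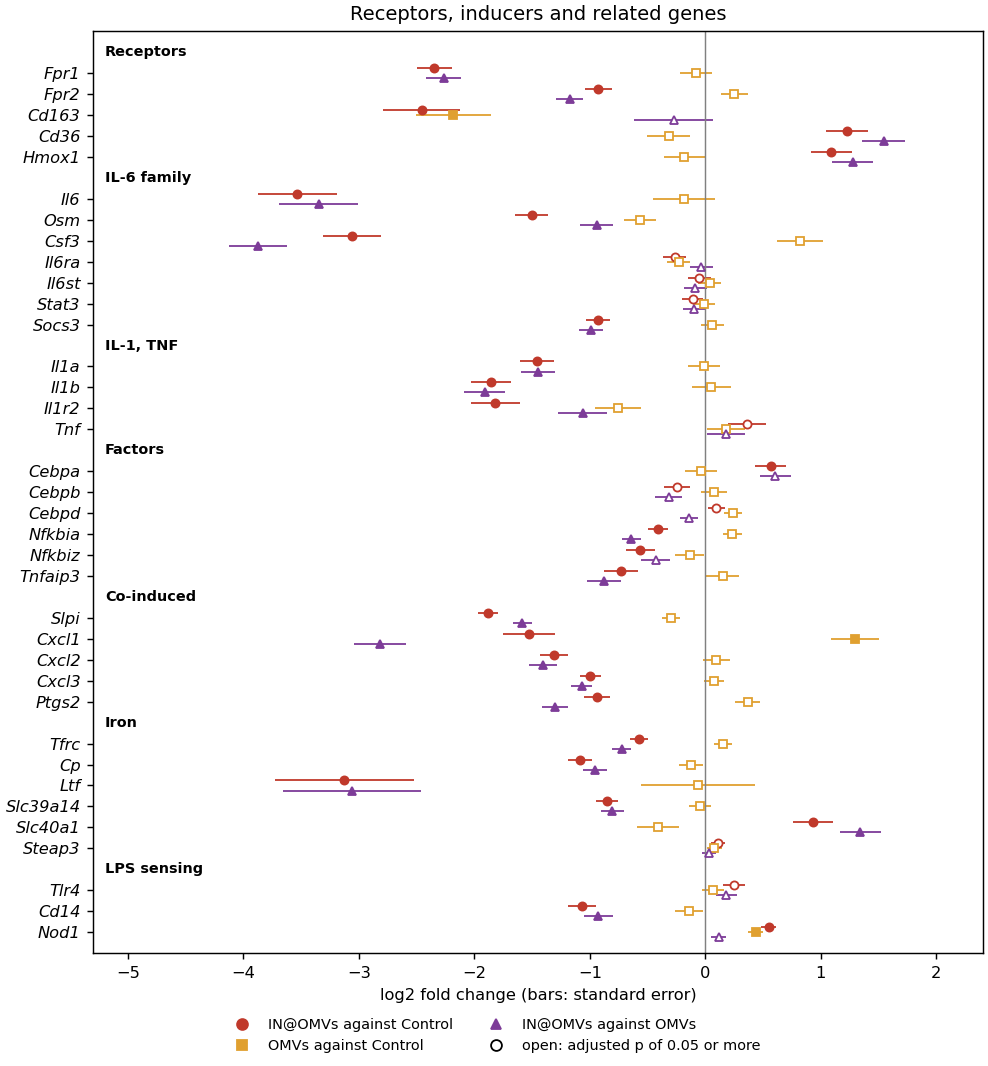
Log2 fold change with standard error for genes from the receptor and ligand, inducer, factor, co-induced, iron and LPS sensing lists in the 3 comparisons. Filled symbols passed an adjusted p of 0.05 in edgeR. Il6, Csf3, Il1b and Fpr1 lie between -3.88 and -1.86 in both comparisons of IN@OMVs, whereas Stat3, Cebpb, Cebpd and Tnf have open symbols throughout.

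Over the 8 lists, 48 of 137 tested genes were called in IN@OMVs against Control, 11 upward and 37 downward, against 6.55% of all tested genes. Of these 33 kept the call in every omission of 1 library and 43 with the replicate block. In IN@OMVs against OMVs 38 were called, 3 upward and 35 downward, against 2.85% of all tested genes, and 26 kept the call in every omission. The lists were written with earlier results known, so these shares describe them and do not test them.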

How the data were processed

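RNA from 9 libraries of sorted tumour macrophages was measured. The authors deposited expected counts for each gene, which the values show to be unnormalised. RSEM, Bowtie2 and BWA are the tools, and mm9 and hg19 the builds, in the submitters' processing notes, with no version or role, so no coordinates are given for the counting. After rounding, edgeR 4.0.16 (R 4.3.3) fitted its quasi-likelihood model to all 9 libraries together, a mean for each group, after filterByExpr and TMM scaling, with Benjamini-Hochberg adjustment over 13090 genes and a threshold of 0.05. Its common dispersion was 0.0172. CPM used TMM-scaled library sizes, and SE is the fold change over the square root of F. The 6 genes, the 8 gene lists and the 10 marker lists were chosen with earlier results of these data known.

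The rule for named genes took the 6 genes, the 4 genes most like each of them, up to 6 called genes with the smallest p per list, and 19 fixed paralogs, receptors or inducers whatever their p. Same-numbered libraries were checked for pairing by the correlation of their deviations from group means. It was 0.45, 0.31 and 0.15 for IN@OMVs with Control and 0.53, 0.37 and 0.12 for OMVs with Control, each over 0.1, so a blocked adjusted p stands beside each named gene whose call it ended. Libraries numbered 2 and 3 also correlated across numbers. The values were 0.36 and 0.29 for IN@OMVs with Control and 0.35 and 0.08 for OMVs with Control. In these comparisons only replicate 1 stood apart by number. For IN@OMVs with OMVs it was 0.07, 0.51 and -0.37, and the numbers were not taken as pairs. Alternatives were RLE factors, DESeq2 1.42.0, limma-voom (limma 3.58.1), no filter, the block and each library left out. On simulated data with 200 changed genes, 4 of 160 calls were false for IN@OMVs against Control, 6 of 162 for OMVs against Control and 7 of 173 for IN@OMVs against OMVs. The simulated libraries were drawn independently of each other. They hold neither the correlations above nor a library that stands apart, so these shares do not give the false calls in the real data. Upstream sequences are RefSeq's (GRCm38.p6) and transcript lengths GENCODE M21's.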

Additional observations from a re-analysis of the deposited data

How the results depend on the processing

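The log2 changes of Saa3, Hp, Lcn2, Lrg1 and Steap4 kept their direction in all 3 comparisons under every alternative run. Over the omissions of 1 library they lay between -6.57 and -6.25 for Saa3, -4.30 and -4.13 for Hp, -4.21 and -3.95 for Lcn2, -4.69 and -4.04 for Lrg1 and -3.56 and -3.24 for Steap4 in IN@OMVs against Control. Saa1 lay between -0.13 and 0.26 in OMVs against Control. Its limit moved to between -5.02 and -4.24 against Control and -4.96 and -4.29 against OMVs. The limit was weakest without an IN@OMVs library, where fewer libraries stand behind the 0 counts. It was strongest without Control 1 against Control and without OMVs 1 against OMVs. The limit has no value under DESeq2, limma-voom, no filter or the block. The number of the 6 genes that did not overlap was 6 in both comparisons of IN@OMVs under every omission, and 4 to 5 in OMVs against Control.

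Counts over all genes moved with single libraries: 393 to 1635 in IN@OMVs against Control (858 with all libraries), 0 to 266 in OMVs against Control (55) and 180 to 786 in IN@OMVs against OMVs (373). Over the gene lists the omissions gave 35 to 62, 0 to 12 and 26 to 53 calls. For OMVs against Control DESeq2 called 207 genes and 12 on the lists, limma-voom 36 genes, and the replicate block 20 genes and 2 on the lists. DESeq2 called 646 genes for IN@OMVs against OMVs. There the replicate block called 306 genes and 37 on the lists and kept 35 of the 38 list calls; same-numbered libraries did not all correlate (0.07, 0.51 and -0.37), although T cell markers were high in replicate 1 of all 3 groups. On the other acute phase list it gave 1 gene that rose and 2 that fell. The cause of these moves was not tested. With the replicate block, calls of named genes ended in the comparisons with Control where given beside them. No named gene outside the 6 reversed with a call in either fit, and sign changes without a call were not counted. Against Control the calls of Nfkbia and Ltf ended without IN@OMVs 2 or 3, and that of Nfkbia also without Control 2 (highest edgeR adjusted p = 0.0826 and 0.059). Those of Tnfaip3 and Slc40a1 ended without IN@OMVs 2 or 3 or Control 1 or 2 (0.083 and 0.0743). Ccl7, Cebpa, Cebpg and Nfkbiz lost theirs in 7, 7, 5 and 7 of the 9 omissions (up to 0.167, 0.136, 0.105 and 0.11). Against OMVs Bcl3, C3 and Ltf lost theirs in 5, 8 and 7 (up to 0.1, 0.141 and 0.105). Low counts limit Saa1, Saa2 and Lrg1 in IN@OMVs. They also limit Ly6g, Ngp and Il6 there, with 6, 8 and 23 counts over the group, and Csf3 and Ltf, with 34 each.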
